A study of Mus musculus with 8 samples.

Results

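The lipid droplet coat and lipase genes measured here in mouse liver are 10: the droplet fusion proteins Cidea, Cideb and Cidec, the perilipin coat proteins Plin1 to Plin5, the triglyceride lipase Pnpla2 and its inhibitor G0s2. Every array probe whose gene name, current or older, is 1 of these 10 was taken, which gave 11 of the 41174 probes on the array, 2 of them for Pnpla2 and 1 for each other gene. Of the 11 probes, 10 passed the filter on dim probes, by which both arrays of some group had to be well above background, and were tested among the 27235 that passed; the probe for Plin1 did not pass.

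RNA was measured on 8 one-colour Agilent arrays in 4 groups of 2. KO mice were Albumin-Cre;Dicer1loxP/loxP, in which a Cre recombinase driven by the albumin promoter deletes Dicer1, the gene of the ribonuclease that matures microRNAs, in hepatocytes; WT mice were Dicer1loxP/loxP littermates without the Cre. All were C57BL/6, 6 months old and labelled female. The KO ENU and WT ENU groups had been given ENU (N-ethyl-N-nitrosourea, a DNA-alkylating mutagen) into the peritoneum once, at 120 mg/kg, 15 days earlier, and the KO vehicle and WT vehicle groups had received dimethylsulfoxide, all in 2 ml/kg; the labels give no day for the vehicle mice. The deletion needs an active albumin promoter, so other liver cells keep Dicer1, and RNA of the whole organ cannot tell fewer cells of a type from less RNA per cell.

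Lipid droplets store triglyceride under a single layer of phospholipid that carries a coat of perilipins. The coat decides how easily lipases reach the lipid: Pnpla2, also called ATGL, removes the first fatty acid from triglyceride, Abhd5 activates it and G0s2 inhibits it. CIDE proteins collect where droplets touch and pass lipid from the smaller droplet to the larger, and in liver Cidec and Plin4 are known as genes that respond to PPAR transcription factors and to fat accumulation.

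After ENU, most of these genes gave lower signal in both genotypes, but no averaged ENU difference passed in the scaling used (smallest limma adjusted p = 0.143). Each fold sets 1 RNA sample against 1, and each treatment had its own slide. Cidec was 24.4-fold lower in KO ENU than in KO vehicle liver and 29.5-fold lower in WT ENU than in WT vehicle liver, and Plin4 was 7.08-fold lower after ENU in KO and 31.4-fold lower in WT. Plin5 and G0s2 were 4.23-fold and 2.51-fold lower in KO and 6.00-fold and 7.05-fold lower in WT, while Cideb and Plin3 differed from vehicle by at most 1.28-fold in either genotype. Between genotypes the directions were mixed: Cidec rose in KO against WT, G0s2 fell, and 7 of the other tested probes did not pass the test. Cidea rose too, but it was not well above background on any WT array and did not pass with normexp background correction (limma adjusted p = 0.641).

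Signals are given as log2 of the processed signal over the 75th percentile of the same array, so 0 is the level of that percentile and 1 unit is a factor of 2; levels of different probes are not comparable. After each array was centred, the difference between arrays a and b of a group was not detectable beyond the noise of repeated spots; without centring it was detectable for the KO vehicle pair (one-sided permutation p = 0.0035), whose arrays were offset by 0.02 over the probes compared. Arrays a and b therefore stand for 1 RNA sample, and a difference between 2 groups has no replicate check. Over 38 pairs of member values well above background, the arrays of a group differed by a median of 0.03 and by at most 0.17. Averages over both treatments or both genotypes come from a limma fit over the 4 RNA samples with Benjamini-Hochberg adjustment over all tested probes, and the words rose and fell are kept for adjusted p under 0.05 there. Its p-values set each averaged difference against how far these 4 samples depart from an additive fit. That departure is the only source of error, with each probe's variance moderated toward that of all tested probes. Of 4.14 total degrees of freedom, 1 is the residual of the probe itself. How many mice went into each sample is not given in the labels. Each treatment had its own slide, and each genotype its own positions on the slides, so ENU cannot be told apart from slide nor genotype from position. Dicer1 itself was 2.81-fold lower in KO than in WT after ENU and 5.4-fold lower on vehicle with 1 probe, and 1.18-fold and 1.38-fold lower with the other. Probes of the Y-linked genes Ddx3y, Eif2s3y and Kdm5d were well above background on all 8 arrays, which goes against the label female, while 3 of the 4 Xist probes were above it on none and the fourth on 3.

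The 4 members with the lowest ENU minus vehicle difference, averaged over KO and WT, are shown with the 250 bases before their transcription start, from the RefSeq promoter table on GRCm38.p6. The windows are chr6:113435761-113436010 for Cidec (the start farther upstream of the pair in the table), chr17:56109783-56110032 for Plin4, chr17:56117549-56117798 for Plin5 (likewise the upstream start) and chr1:193273189-193273438 for G0s2, all on the minus strand and written 5′ to 3′ up to the base before the start. Capitals mark matches, on either strand, to 6 motifs: AGGTCA (the nuclear receptor hexamer), AGGTCA repeated after any 1 base (the direct repeat that PPAR and RXR bind), CACGTG (an E-box), TGACG (the core of cyclic AMP response elements), GGGCGG (a GC box) and CCAAT.
Cidec: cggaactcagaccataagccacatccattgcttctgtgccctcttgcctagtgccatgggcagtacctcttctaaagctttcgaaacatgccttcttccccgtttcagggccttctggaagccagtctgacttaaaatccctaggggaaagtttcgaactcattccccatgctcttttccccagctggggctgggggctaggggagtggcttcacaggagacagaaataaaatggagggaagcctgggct
Plin4: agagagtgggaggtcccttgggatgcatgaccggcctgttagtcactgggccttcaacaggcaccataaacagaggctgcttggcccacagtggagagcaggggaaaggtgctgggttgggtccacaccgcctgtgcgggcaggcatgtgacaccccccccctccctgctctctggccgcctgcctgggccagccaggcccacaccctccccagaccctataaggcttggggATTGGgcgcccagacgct
Plin5: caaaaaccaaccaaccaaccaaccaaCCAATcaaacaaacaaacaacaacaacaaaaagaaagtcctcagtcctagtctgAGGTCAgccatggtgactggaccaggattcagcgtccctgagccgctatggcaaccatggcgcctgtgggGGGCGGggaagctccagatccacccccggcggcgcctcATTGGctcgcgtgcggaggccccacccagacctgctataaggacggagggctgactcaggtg
G0s2: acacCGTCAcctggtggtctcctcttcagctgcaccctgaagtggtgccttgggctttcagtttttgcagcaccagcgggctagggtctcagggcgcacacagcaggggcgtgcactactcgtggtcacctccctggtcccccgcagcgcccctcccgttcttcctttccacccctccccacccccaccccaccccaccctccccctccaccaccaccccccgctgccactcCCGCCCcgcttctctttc
The Cidec window held no match. The Plin4 window held CCAAT, read on the other strand, 18 to 14 bases before the start. The Plin5 window held AGGTCA at 170 to 165, GGGCGG at 100 to 95 and CCAAT at 224 to 220 and, on the other strand, at 62 to 58 bases before the start. The G0s2 window held TGACG at 246 to 242 and GGGCGG at 18 to 13, both on the other strand. No matches overlapped in these 4 windows. Among 32851 promoter windows of the same length, 14.0% held AGGTCA, 0.0335% its direct repeat, 6.02% CACGTG, 17.8% TGACG, 32.7% GGGCGG and 33.8% CCAAT. A match is a description of the letters, and a missing match says only that these letters are not in the window.

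Among the CIDE proteins, Cidec promotes the growth of large droplets in fat cells and in fatty liver. Its probe (chr6:113585627-113585686, minus strand, on mm7, as are all probe positions here) read 0.91 and 0.84 in KO ENU, −0.99 and −1.09 in WT ENU, 5.47 and 5.49 in KO vehicle and 3.86 and 3.83 in WT vehicle liver. Both ENU groups lay below both vehicle groups, and within each treatment both KO arrays lay above both WT arrays. KO was 3.76-fold higher than WT after ENU and 3.11-fold higher on vehicle, an average of 1.77 ± 0.20 (SE; 95% interval 1.23 to 2.31), and Cidec rose (limma adjusted p = 0.0124). The ENU minus vehicle difference averaged −4.74, the fourth lowest of the 27235 probes, with an adjusted p of 0.143 that did not pass.

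Cidea, best known from brown fat and hardly expressed in normal liver, was dim. Its probe (chr18:67759992-67760051, plus strand) read −4.50 and −4.55 in KO ENU, −6.14 and −5.66 in WT ENU, −2.80 and −2.88 in KO vehicle and −4.54 and −4.57 in WT vehicle liver. It was well above background on all 4 KO arrays and on no WT array, so the KO level is at least 1.13-fold higher after ENU and at least 2.40-fold higher on vehicle, where a bound sets the KO mean against the lowest signal called above background on the WT arrays. The fitted average was 1.54 ± 0.20 (limma adjusted p = 0.0157), but with normexp background correction it was 0.10 with an adjusted p of 0.641, so this call depends on how dim signal is treated. In KO liver Cidea was 3.22-fold lower after ENU than on vehicle, a difference of −1.69 that was −0.78 with normexp.

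Cideb is the CIDE protein of normal hepatocytes, where it takes part in loading lipid onto very low density lipoprotein. Its probe (chr14:50622503-50622562, minus strand) read 2.74 and 2.70 in KO ENU, 3.54 and 3.46 in WT ENU, 2.61 and 2.50 in KO vehicle and 3.09 and 3.20 in WT vehicle liver. It went the other way from Cidec and Cidea between genotypes, 1.72-fold lower in KO than in WT after ENU and 1.51-fold lower on vehicle, an average of −0.69 ± 0.19 that did not pass (limma adjusted p = 0.0637; 0.0330 with normexp and 0.0289 with median centring). After ENU it was 1.12-fold higher in KO and 1.28-fold higher in WT than on vehicle.

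**Figure D1:**
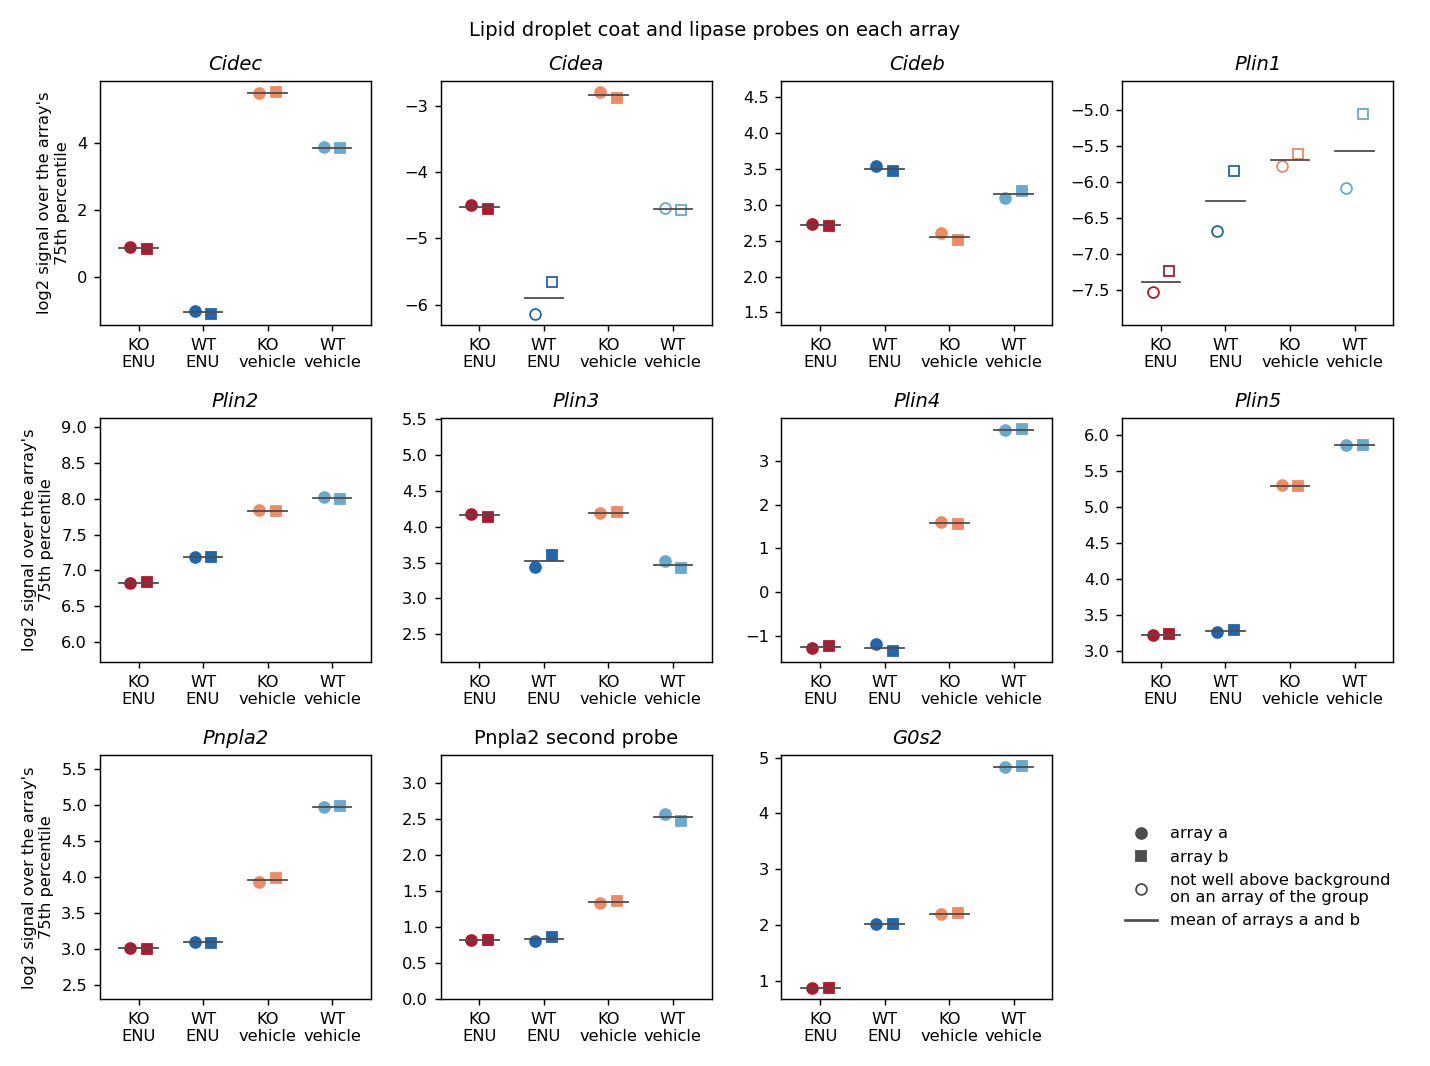
Each panel plots the log2 signal over the array's 75th percentile of 1 member probe (vertical axis, own range in each panel) on arrays a and b of the 4 groups, with a line at their mean and open symbols where the group was not well above background. Cidec, Plin4 and Plin5 lie lower in both ENU groups than in both vehicle groups, and the WT vehicle arrays give the highest Plin4, Plin5, Pnpla2 and G0s2 signals.

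Of the perilipins, Plin1, the coat protein of fat cells that holds Abhd5 away from the lipase, was not well above background on any of the 8 arrays (chr7:75590467-75590526, minus strand), and no fold is given. Plin2, the main coat protein of hepatocyte droplets, is listed in the files under its older name Adfp (chr4:86060498-86060557, minus strand). It read 6.82 and 6.84 in KO ENU, 7.19 and 7.19 in WT ENU, 7.84 and 7.83 in KO vehicle and 8.02 and 8.0 in WT vehicle liver. The 4 groups did not overlap: ENU lay 2.01-fold below vehicle in KO and 1.77-fold below it in WT. The KO minus WT difference averaged −0.27 ± 0.19 (limma adjusted p = 0.334) and was 0.55 with quantile normalization (adjusted p = 0.111), so its direction depends on the scaling.

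Plin3, a perilipin that moves between cytosol and newly formed droplets, is listed as M6prbp1 (chr17:54437255-54437314, minus strand). It read 4.18 and 4.14 in KO ENU, 3.44 and 3.61 in WT ENU, 4.19 and 4.20 in KO vehicle and 3.52 and 3.42 in WT vehicle liver. KO lay above WT by 1.55-fold after ENU and 1.65-fold on vehicle, an average of 0.68 ± 0.19 (limma adjusted p = 0.0621; 0.0199 with normexp and 0.0262 with quantile normalization). The ENU minus vehicle difference was −0.04 in KO, and 0.05 in WT, where the arrays of both treatments overlapped; their average of 0.01 was −0.057 with normexp and −0.015 with median centring.

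Plin4, listed as S3-12, coats small droplets in fat cells and muscle (chr17:54259939-54259998, minus strand). It read −1.28 and −1.23 in KO ENU, −1.19 and −1.35 in WT ENU, 1.59 and 1.55 in KO vehicle and 3.69 and 3.72 in WT vehicle liver. After ENU the genotypes overlapped, whereas on vehicle KO was 4.39-fold lower than WT. The ENU difference was thus −2.82 in KO and −4.97 in WT, and the difference between these, 2.15, has no test with 1 RNA sample a group. Averaged over treatments, KO minus WT was −1.06 ± 0.56 (95% interval −2.60 to 0.47; limma adjusted p = 0.213).

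Plin5, listed as 2310076L09Rik and found through its accession, coats droplets in tissues that burn fat and binds Pnpla2 and Abhd5 (chr17:54269931-54269990, minus strand). It read 3.21 and 3.23 in KO ENU, 3.26 and 3.29 in WT ENU, 5.30 and 5.30 in KO vehicle and 5.86 and 5.86 in WT vehicle liver. The ENU groups lay close together and both well below vehicle, 4.23-fold in KO and 6.00-fold in WT. KO was 1.04-fold lower than WT after ENU and 1.48-fold lower on vehicle; the average of −0.31 ± 0.22 did not pass (limma adjusted p = 0.336). With quantile normalization these differences turned to 0.31 after ENU, 0.09 on vehicle and 0.20 on average. The probes of Plin4 and Plin5 are neighbours on chromosome 17.

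The lipase Pnpla2 was read by 2 probes. The brighter (chr7:137877295-137877354, plus strand) gave 3.01 and 3.0 in KO ENU, 3.10 and 3.07 in WT ENU, 3.93 and 3.98 in KO vehicle and 4.97 and 4.99 in WT vehicle liver. The second (chr7:137876465-137876524, plus strand) gave 0.82 and 0.82 in KO ENU, 0.80 and 0.86 in WT ENU, 1.33 and 1.36 in KO vehicle and 2.58 and 2.47 in WT vehicle liver. Both probes showed the same order, with the ENU groups lowest and close together, KO vehicle above them and WT vehicle highest. After ENU KO was 1.06-fold and 1.01-fold lower than WT, with the other sign under normexp and quantile normalization, whereas on vehicle it was 2.03-fold and 2.27-fold lower. ENU lay below vehicle by 1.93-fold and 1.44-fold in KO and by 3.71-fold and 3.23-fold in WT. The average genotype differences of −0.55 ± 0.30 and −0.60 ± 0.34 did not pass (limma adjusted p = 0.220 and 0.243).

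G0s2, the inhibitor that binds Pnpla2, was the 1 member that fell in KO (chr1:192825383-192825442, minus strand). It read 0.87 and 0.88 in KO ENU, 2.02 and 2.02 in WT ENU, 2.19 and 2.21 in KO vehicle and 4.83 and 4.84 in WT vehicle liver. No groups overlapped. KO was 2.22-fold lower than WT after ENU and 6.21-fold lower on vehicle, an average of −1.89 ± 0.41 (95% interval −3.02 to −0.77), and G0s2 fell (limma adjusted p = 0.0380). ENU lay below vehicle by 2.51-fold in KO and by 7.05-fold in WT. The lipase and its inhibitor both read highest in WT vehicle liver, with KO and WT close together after ENU for Pnpla2 and apart for G0s2.

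**Figure D2:**
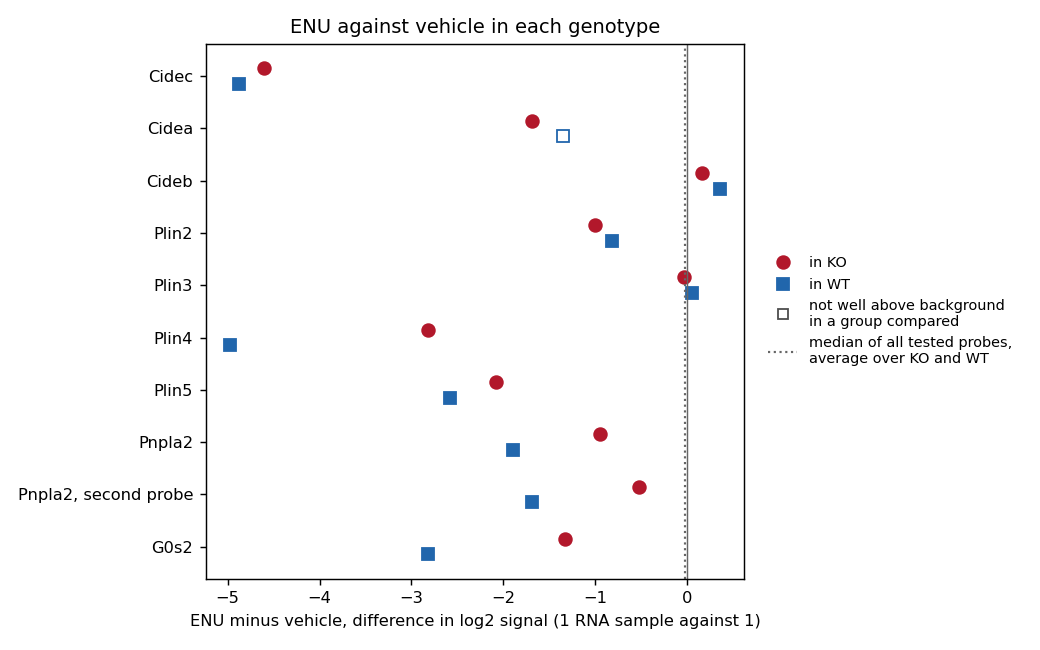
The horizontal axis gives the ENU minus vehicle difference in log2 signal for each tested member probe, in KO (circles) and in WT (squares), each 1 RNA sample against 1; the dotted line is the median of all tested probes, −0.03. Cidec lies at −4.61 in KO and −4.88 in WT and Plin4 at −4.97 in WT, and only Cideb in both genotypes and Plin3 in WT lie right of 0.

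Set against all probes, the members stood lower after ENU. The members were chosen with earlier results of these data known, so the shares here describe them and test nothing. In KO, 6 of the 10 tested probes were at least 2-fold lower after ENU than on vehicle, where 4.95% of all tested probes were. Plin2 in KO only just reached that mark, at 2.01-fold. In WT, 7 of 10 were, where 5.29% of all were. Of these 7, 1 was Cidea, which was not well above background in either WT group, and both Pnpla2 probes were among them. Cidec, Plin4, Plin5 and G0s2 were at least 2-fold lower in both genotypes. With Cidea, for which no fold can be given in WT, the count by signal was 5 of 10 probes beside 1.7% of all. No member was at least 2-fold higher after ENU, beside 4.61% of all probes in KO and 7.31% in WT. The median difference over members was −1.17 in KO and −1.79 in WT, beside −0.03 over all probes in each; without Cidea, over 9 probes, it was −1.0 in KO and −1.89 in WT. Under normexp, quantile normalization and median centring 5 or 6 member probes in KO and 6 or 7 in WT were at least 2-fold lower.

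The ENU contrast nonetheless had no call. The fit has 2 RNA samples per treatment and 1 residual degree of freedom, and no probe of 27235 (0%) had an adjusted p under 0.05, the smallest being 0.143. At an unadjusted p under 0.05, 8 of the 10 member probes were lower and none higher, beside 11.1% of all probes lower and 11.6% higher; the adjusted p of those 8 lay between 0.143 and 0.188. With normexp background correction 3 probes passed (limma adjusted p = 0.0246 each), of which 1 was Cidec at −4.48 and the others were the metallothionein genes Mt1 and Mt2 at −3.77 and −3.81, named here after their values were seen.

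**Figure D3:**
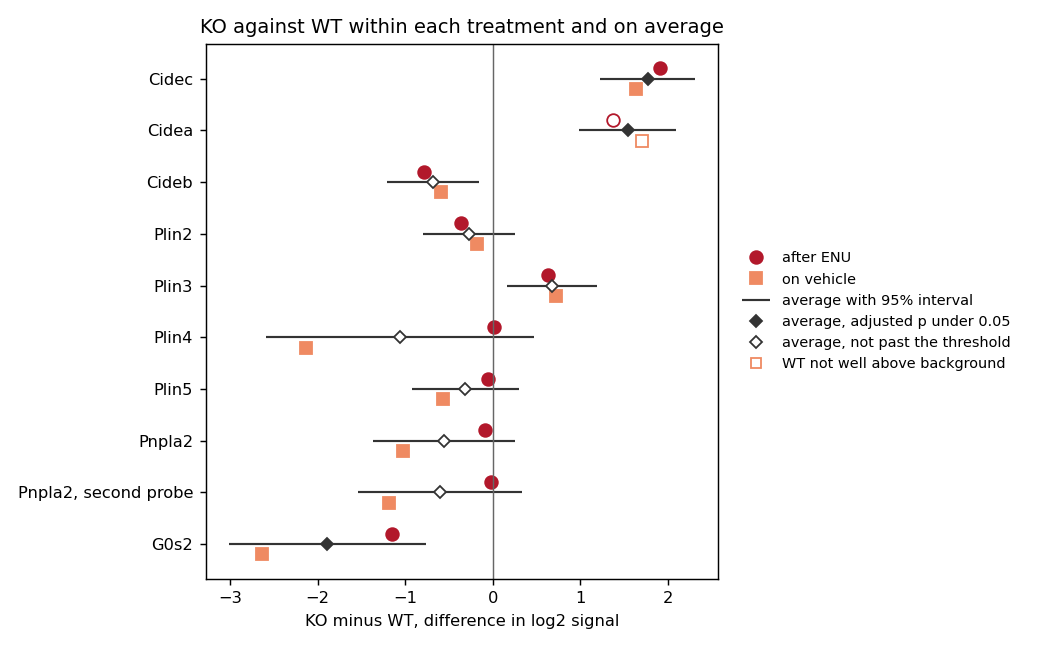
The horizontal axis gives KO minus WT in log2 signal for each tested member probe, after ENU (circles) and on vehicle (squares), with the limma average (diamonds, filled where adjusted p was under 0.05) and its 95% interval. Cidec and Cidea lie right of 0, G0s2 lies left of it, and for Plin4 and both Pnpla2 probes the vehicle square lies between −1.02 and −2.14 while the ENU circle lies near 0.

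Between genotypes, 3 of the 10 member probes were called, 2 rising and 1 falling, beside 29.4% of all tested probes (16% higher and 13.3% lower in KO), so the share of members called was near the background. The rising probes were Cidec and Cidea, and Cidea passed the filter only through its KO arrays and was not called with normexp (0.10, limma adjusted p = 0.641). On vehicle 2 member probes were at least 2-fold higher in KO than in WT and 4 at least 2-fold lower, beside 16.3% and 9.82% of all probes. After ENU 2 were higher by signal and 1 lower, beside 15.7% and 12.6%. Cidea is 1 of these 2, but no WT array was well above background for it, and its bound after ENU is only 1.13-fold. With normexp the counts were 1 higher and 1 lower after ENU, and 1 and 3 on vehicle. With quantile normalization they were 3 higher and 1 lower after ENU, and 3 and 2 on vehicle. The median KO minus WT difference of members was −0.04 after ENU (−0.05 over all probes) and −0.58 on vehicle (−0.11 over all probes). The difference of the ENU differences, KO minus WT, was 2.15 for Plin4, 1.49 for G0s2, 0.94 and 1.17 for the Pnpla2 probes, 0.51 for Plin5 and 0.27 for Cidec, and it was −0.34 for Cidea, −0.19 for Cideb, −0.18 for Plin2 and −0.09 for Plin3.

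The wider pathway was described with 4 lists holding 60 tested genes, each by its brightest probe. These lists, too, were chosen with earlier results of these data known. Between genotypes 5 of the 60 rose and 18 fell (beside 17.2% of all genes higher and 14.1% lower); the counts were 4 and 11 with quantile normalization, 6 and 25 with normexp and 4 and 32 with median centring. The median difference in a list lay between −0.50 and −0.72, beside −0.09 over all probes; it lay between −0.24 and −0.61 with quantile normalization, beside −0.08 over all probes, and between −0.72 and −0.94 with median centring, beside −0.30.

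Among 14 further lipases and their partners, 1 rose and 4 fell. Lipoprotein lipase, Lpl, which releases fatty acids from circulating lipoproteins, was 5.50-fold higher in KO than in WT after ENU and 3.42-fold higher on vehicle (2.12 ± 0.25, limma adjusted p = 0.0134). The carboxylesterase Ces3b fell by 2.70 ± 0.25 on the log2 scale (adjusted p = 0.0101), monoacylglycerol lipase Mgll by 2.09 ± 0.28 (adjusted p = 0.0163), the carboxylesterase Ces1d by 1.75 ± 0.19 (adjusted p = 0.0118) and Abhd6, another monoacylglycerol lipase, by 1.62 ± 0.19 (adjusted p = 0.0131). After ENU 2 of the 14 were at least 2-fold lower in KO and 3 in WT, beside 5.4% and 5.39% of all genes. At least 2-fold higher were 2 in KO and 1 in WT, beside 4.33% and 7.33%. The 1 in WT was Pnpla3, which was not well above background in WT vehicle liver and has a bound of at least 1.52-fold.

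Among 16 genes of triglyceride synthesis, 3 rose and 5 fell. The largest difference of any listed pathway gene was that of Mogat2, an acyltransferase best known from intestine, which was 44.0-fold higher in KO than in WT after ENU and 22.7-fold higher on vehicle (4.98 ± 0.30, limma adjusted p = 0.00799; 4.21 with normexp). Agpat4 rose by 1.95 ± 0.19. Lpin1, a phosphatidate phosphatase, was 2.70-fold lower in KO than in WT after ENU and 7.68-fold lower on vehicle (−2.19 ± 0.41), and Agpat2 fell by 1.26 and Mogat1 by 1.05. Gpat4, of the first step of the pathway, fell by 1.04 (adjusted p = 0.0277; 0.155 with quantile normalization). Agpat1, which rose by 0.97, and Dgat2, which fell by 1.01, did not pass with quantile normalization either (limma adjusted p = 0.0522 and 0.356). With median centring Agpat1 did not pass (limma adjusted p = 0.0561). After ENU 4 of the 16 were at least 2-fold lower in KO and 4 in WT, beside 5.4% and 5.39% of all genes. At least 2-fold higher were 2 in KO and 1 in WT, beside 4.33% and 7.33%.

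Among 17 genes of droplet formation and other droplet proteins, 1 rose and 5 fell. Fitm1, which helps package triglyceride into droplets, was 16.8-fold lower in KO than in WT after ENU and 10.54-fold lower on vehicle (−3.73 ± 0.25, limma adjusted p = 0.00826; −3.14 with normexp). Bscl2, or seipin, which organises the sites where droplets form, fell by 1.32 ± 0.19 (adjusted p = 0.0172). Mettl7b fell by 1.84, Mettl7a1 by 1.13 and Aup1 by 0.86, and these 3 did not pass with quantile normalization (adjusted p = 0.0797, 0.0537 and 0.101). Lpcat1, an acyltransferase that remodels phosphatidylcholine, rose by 1.33 (adjusted p = 0.0325; 0.316 with normexp). After ENU 3 of the 17 were at least 2-fold lower in KO and 2 in WT, beside 5.4% and 5.39% of all genes. At least 2-fold higher were 0 in KO and 1 in WT, beside 4.33% and 7.33%. The 1 in WT was Lpcat1, which was not well above background in WT vehicle liver and has a bound of at least 1.34-fold.

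Among 13 transcriptional regulators of these genes, none rose and 4 fell. Ppara, the nuclear receptor that drives fatty acid oxidation genes and several droplet genes, was 3.89-fold lower in KO than in WT after ENU and 2.84-fold lower on vehicle (−1.73 ± 0.22, limma adjusted p = 0.0145). Its ENU minus vehicle difference averaged −1.71 (adjusted p = 0.143), so its level was lowest in KO ENU liver, at 2.63, and highest in WT vehicle liver, at 6.08. Mlxipl, the glucose-responsive factor ChREBP, fell by 1.25, Cebpa by 0.88 and Creb3l3 by 0.86, and these 3 did not pass with quantile normalization (adjusted p = 0.0682, 0.133 and 0.479). After ENU 3 of the 13 were at least 2-fold lower in KO and 6 in WT, beside 5.4% and 5.39% of all genes. At least 2-fold higher was 1 in each genotype, beside 4.33% in KO and 7.33% in WT.

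**Figure D4:**
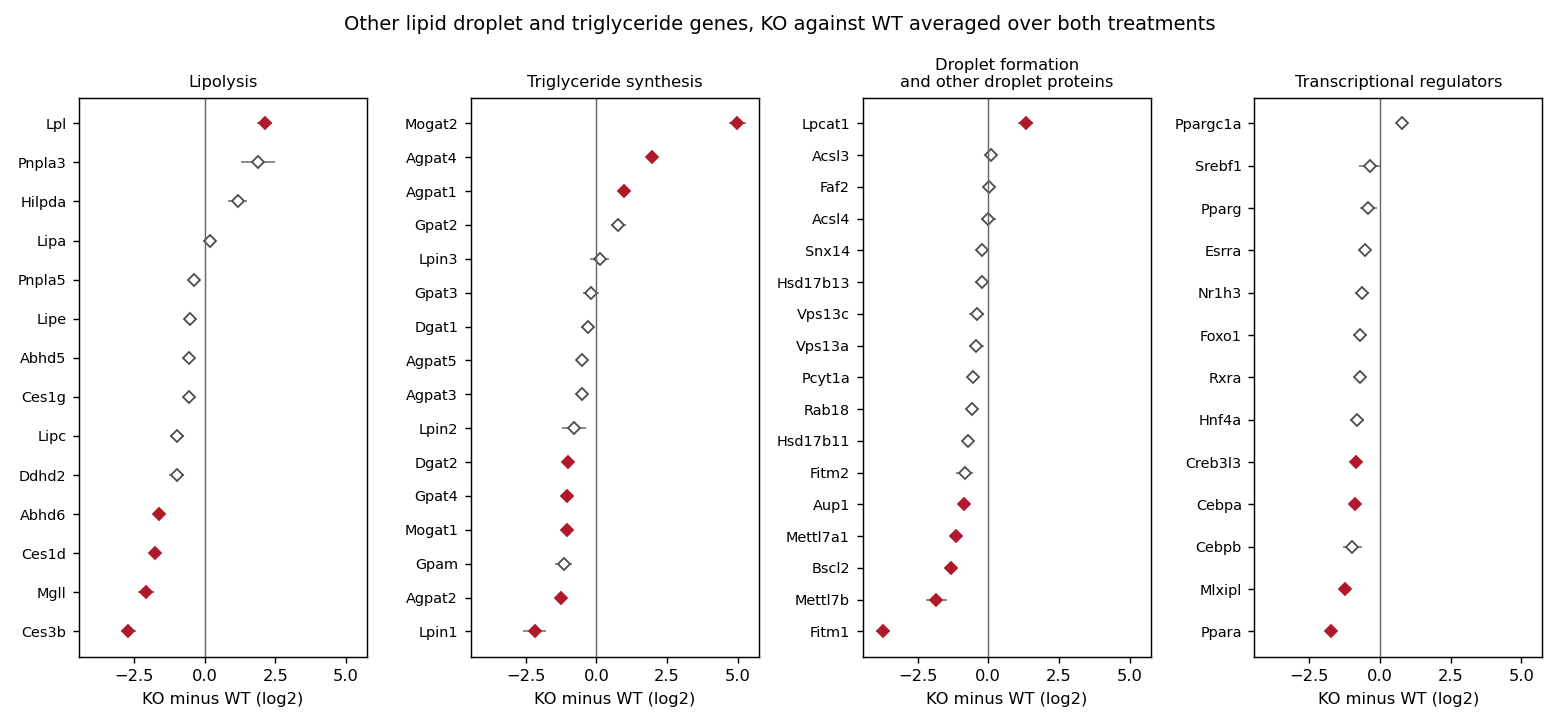
Each panel gives, for the tested genes of 1 list, the KO minus WT difference in log2 signal averaged over both treatments (horizontal axis) with its standard error, filled where the limma adjusted p was under 0.05. The filled symbols left of 0 number 4, 5, 5 and 4 in the lists from left to right, and those right of 0 number 1, 3, 1 and 0.

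Markers of other cells moved with genotype as well. Over all genes, 17.2% were called higher in KO and 14.1% lower. All 11 hepatocyte markers measured were above background in each group, and 5 of them fell in KO (Ttr, Apoa2, Cps1, Tat and Tdo2), of which Ttr and Cps1 did not pass with quantile normalization. The log2 of their summed signal was 11.41 and 11.40 in KO ENU, 11.92 and 11.99 in WT ENU, 11.40 and 11.31 in KO vehicle and 11.94 and 11.96 in WT vehicle liver. Of 11 macrophage markers 9 rose in KO: Trem2, Gpnmb, Ccr2, Lyz2, Itgam, Marco, Cd68, Csf1r and Adgre1. Trem2 was 21.5-fold higher in KO than in WT after ENU and 25.2-fold higher on vehicle. Gpnmb and Itgam were not well above background in WT and passed the filter only through their KO arrays. Gpnmb was at least 10.8-fold higher in KO after ENU and at least 4.99-fold higher on vehicle, and Itgam did not pass with normexp. The macrophage sum was 8.44 and 8.43 in KO ENU, 6.98 and 6.94 in WT ENU, 7.58 and 7.58 in KO vehicle and 6.27 and 6.24 in WT vehicle liver. Of 10 stellate cell markers Col1a1, Pdgfrb and Hand2 rose in KO, with a sum of 7.09 and 7.08 in KO ENU, 6.36 and 6.37 in WT ENU, 6.91 and 6.97 in KO vehicle and 6.24 and 6.23 in WT vehicle liver. Each sum leans on its brightest markers. In KO ENU liver these were Lyz2, at 7.34, for macrophages and Dcn, at 6.59, for stellate cells. Dcn did not pass for genotype (limma adjusted p = 0.0831). The part of hepatocytes, macrophages and stellate cells in the member differences was not tested.

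Fat cells, which express Cidec, Plin1 and Plin4 strongly, were looked for with 11 markers, of which 5 passed the filter. Of the defining markers, Adipoq, Lep and Adig were well above background on 0 of the 8 arrays, Retn on 1 and Adrb3 on 2. The summed level of the list was 2.09 and 2.11 in KO ENU, 2.27 and 2.40 in WT ENU, 2.65 and 2.63 in KO vehicle and 2.56 and 2.60 in WT vehicle liver. Its brightest gene in each group was Fabp4, which macrophages and endothelial cells also express. Cfd, the gene of complement factor D, was not well above background on any KO array and read −3.13 and −2.87 in WT ENU and 1.14 and 1.26 in WT vehicle liver. It was at least 4.71-fold lower in KO than in WT after ENU and at least 67.3-fold lower on vehicle (limma adjusted p = 0.0187). Cfd passed the filter only through its WT arrays, and its average of −5.31 was −2.62 with normexp (limma adjusted p = 0.0469). Aqp7 and Slc2a4 rose in KO, and both passed the filter only through their KO arrays. On vehicle they were at least 3.23-fold and at least 1.83-fold higher than in WT, where they were not well above background. With normexp the Aqp7 average of 2.17 was 0.76 (limma adjusted p = 0.0316), and Slc2a4 did not pass. Cfd and Plin4 both read highest in WT vehicle liver, and the part of fat cells in the Plin4 values was not tested.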

How the data were processed

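Liver RNA of 4 groups was hybridised to 8 one-colour Agilent arrays. The deposited intensity columns, per the file headers (processed signal, and mean and local background signals for an alternative), were written by Agilent Feature Extraction 10.7.1.1; the submitters' processing notes give 10.5.1. The processed signal is background-corrected by that program, and its probe positions are those of mm7. Apart from controls there were 43379 spots of 41174 probes per array; on each array 54.7% to 69.3% of spots stood well above background, none saturated. The number of arrays limits the precision.

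Outlier spots were left out, and each array's log2 processed signal was scaled by subtracting its 75th percentile. That percentile was a signal of 637 to 643 in KO ENU, 484 to 503 in WT ENU, 594 to 638 in KO vehicle and 422 to 428 in WT vehicle. Tests ran over 27235 probes that were well above background on both arrays of any group. Probe names were updated through a RefSeq table of GRCm38.p6, with 23082 probes matched through accessions, 6582 through symbols, 3073 through synonyms and 8437 not at all. Probes of a list gene are represented by the brightest; probe sequences, exons and untranslated regions were not used here.

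After centring, arrays a and b were set against each other at 144 to 178 probes with 5 spots or more: the median absolute standardised difference was 0.596 to 0.725, and 2000 permutations of spots gave a one-sided p between 0.347 and 0.959. Centring was added after the uncentred comparison gave 0.0035 for KO vehicle and 0.356 to 0.637 for the other groups. Arrays a and b were counted as 1 RNA sample, which pairs nothing across groups. Limma 3.58.1 in R 4.3.3 fitted genotype and treatment to the 4 RNA samples, with 1 residual degree of freedom. A run on simulated data with additive effects only checked the code and its signs, not the calls made here. In the limma fit, a response to ENU that depends on genotype counts as noise. Alternatives were normexp (offset 50), quantile normalization, median centring, no filter, other treatment of several probes per gene, separate arrays with and without the letter as a block, and leaving out each array. All members are described. Of the pathway lists, genes called for genotype are named, at most 6 per list with the largest difference, and Agpat1 and Dgat2 besides. Of marker lists, those called are named. Members and lists were chosen with earlier results of these data known.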

Additional observations from a re-analysis of the deposited data

How the results depend on the processing

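Leaving out each of the 8 arrays kept 3 member probes called for genotype and 0 for ENU, 22 to 23 pathway genes called, and 7174 to 7922 of all probes called for genotype. With normexp, 1 member probe (Cidec) and 3 of all probes passed for ENU. The 23 pathway genes called for genotype were 15 with quantile normalization and 36 with median centring. Of the calls for genotype over all probes, 54.7% were higher in KO in the scaling used, 56.5% with quantile normalization, 36.2% with normexp and 36.4% with median centring, and the median difference of all probes, −0.09, was −0.19 with normexp and −0.30 with median centring, so differences of that size depend on the scaling. Treating the 8 arrays as separate samples called 10 member probes for genotype and 9 for ENU, 57 pathway genes, and 22514 and 19572 of all probes. With the letters a and b as a replicate block these were 10, 9, 57, 22309 and 19272; the letters pair only array numbers, and both fits set RNA samples against array noise.

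The KO minus WT average turned to 0.55 for Plin2 and 0.20 for Plin5 with quantile normalization. The ENU average of Plin3, 0.01, turned to −0.057 with normexp and −0.015 with median centring, and ranged from −0.033 to 0.050 when 1 array was left out. Of the genotype results of single member probes, 137 under alternatives stayed on the same side of the threshold with the same direction, 18 passed only under the alternative, 1 (Cidea with normexp) no longer passed and 2 turned. Most of the 18 come from the 2 fits of separate arrays, which called all 10 member probes. The rest are Cideb with normexp and median centring and Plin3 with normexp and quantile normalization. The ENU averages of single member probes stayed the same in this sense in 134 cases. In 19 they passed only under the alternative, and in 5, all of Plin3, they turned. Of the member differences between 2 groups, 466 under alternatives stayed within the spread of arrays a and b and 86 moved beyond it. Dim signal limits Cidea and Plin1, and 1 RNA sample per group limits every difference between 2 groups.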
